A study of Homo sapiens with 12 samples.

Results

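RKO cells forced to express the beta form of the transcription factor PRDM1 were compared with RKO cells forced to express green fluorescent protein (GFP). The 4 RNA-seq libraries concerned, 2 with beta and 2 with GFP, were chosen by their titles from 12 libraries in 6 groups of the series. The other groups were wild-type RKO cells, 2 PRDM1 knockout derivatives (KO2 and KO5), and cells overexpressing the alpha form. Wild-type and alpha libraries are further reference points below, and all 12 libraries enter the estimate of the spread behind each standard error and p-value. RKO is an established human colon carcinoma line, and every group is a derivative of it. The vector, the promoter, the level of PRDM1 protein and whether a derivative is a single clone or a pool are not stated in the labels. Nothing in the labels tells if the libraries within a group are separate cultures, so p-values reflect the spread from library to library, and that spread may be technical.

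PRDM1, also known as BLIMP1, is a zinc finger protein that represses transcription by recruiting chromatin-modifying enzymes, and it is best known for ending the B cell programme in plasma cells. The beta form is made from an alternative start and lacks the amino-terminal part of the protein, which disrupts the PR domain, while it keeps the zinc fingers that bind DNA. The DNA sequence PRDM1 binds, built around GAAAG, resembles the elements bound by interferon regulatory factors (IRFs), and PRDM1 is known to repress interferon beta and genes of antigen presentation. In the gut it is known for holding back the adult epithelial programme before weaning.

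Reads assigned to genes numbered 25414550 and 27509340 in the GFP libraries and 19058967 and 24170122 in the beta libraries. Values below are gene counts scaled to a fixed library total, the usual CPM. Fold changes are on the log2 scale and stand with their standard error (2 libraries in each group), and they were tested with edgeR's quasi-likelihood test over 12858 genes with enough counts. With 3 counts taken as the limit that a count of 0 allows, the least deep of the 4 libraries detects down to 0.157 CPM. The common coefficient of variation, which is the spread beyond counting error estimated from all 12 libraries, was 2.18%. With counting error included, the log2 difference between the 2 libraries of a group had a standard deviation across genes of 0.23 for GFP and 0.259 for beta. Of 19 epithelial markers 14, among them EPCAM, CDH1 and KRT20, stood at 3 counts or fewer in all 4 libraries, while KRT8 and KRT18 were abundant, and the summed markers were at 903 to 930 CPM with GFP and 931 to 932 CPM with beta. All 5 endothelial markers were at 3 counts or fewer, and of 10 leukocyte markers 8 were. The other leukocyte markers were ITGAM, at 4 counts in 1 GFP library, and CD68, a lysosomal protein, which rose by 0.43 ± 0.07. Of 10 fibroblast markers 6 were at 3 counts or fewer, and their sum was 9.41 to 9.92 CPM with GFP and 12.4 to 14 CPM with beta. In such bulk libraries fewer cells expressing a gene and less RNA per cell cannot be told apart.

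PRDM1 transcripts stood at 2 and 6 counts in the GFP libraries and at 22395 and 28423 counts in the beta libraries. In CPM that is 0.0787 and 0.218 CPM with GFP and 1175 and 1176 CPM with beta, a count ratio of 7780 (95% interval 3950 to 18000). This interval and those of later ratios of counts are exact binomial ones, and counting error is the only error they cover. Counts per gene cannot tell the introduced transcript from the cell's own.

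Beta expression was followed by many small differences and by few large ones. Against GFP 2945 genes rose (22.9% of those tested) and 2316 fell (18%), or 5261 in all (40.9%). Of these, 182 rose at least 2-fold (1.42%) and 207 fell at least 2-fold (1.61%), together 3.03%. Between 0 and 0.25 on the log2 scale lay 1423 of the rises and 1130 of the falls, and beyond 2 lay 80 rises and 66 falls. The fold change over all tested genes had a median of 0.0116, so that directions below are close to directions relative to the typical gene. Libraries of the 2 groups did not overlap for 8737 genes (67.9%), and 6137 had an unadjusted p under 0.05.

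Large changes were more frequent among rare transcripts. Of 1293 genes under 1 CPM, 71 rose and 90 fell at least 2-fold, against 11 and 14 of 2431 genes of 100 CPM or more. Together the 2-fold rises went from 2403 CPM with GFP to 7918 CPM with beta, of which PRDM1 itself made up 1175. The 2-fold falls went from 7569 to 2167 CPM.

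**Figure D1:**
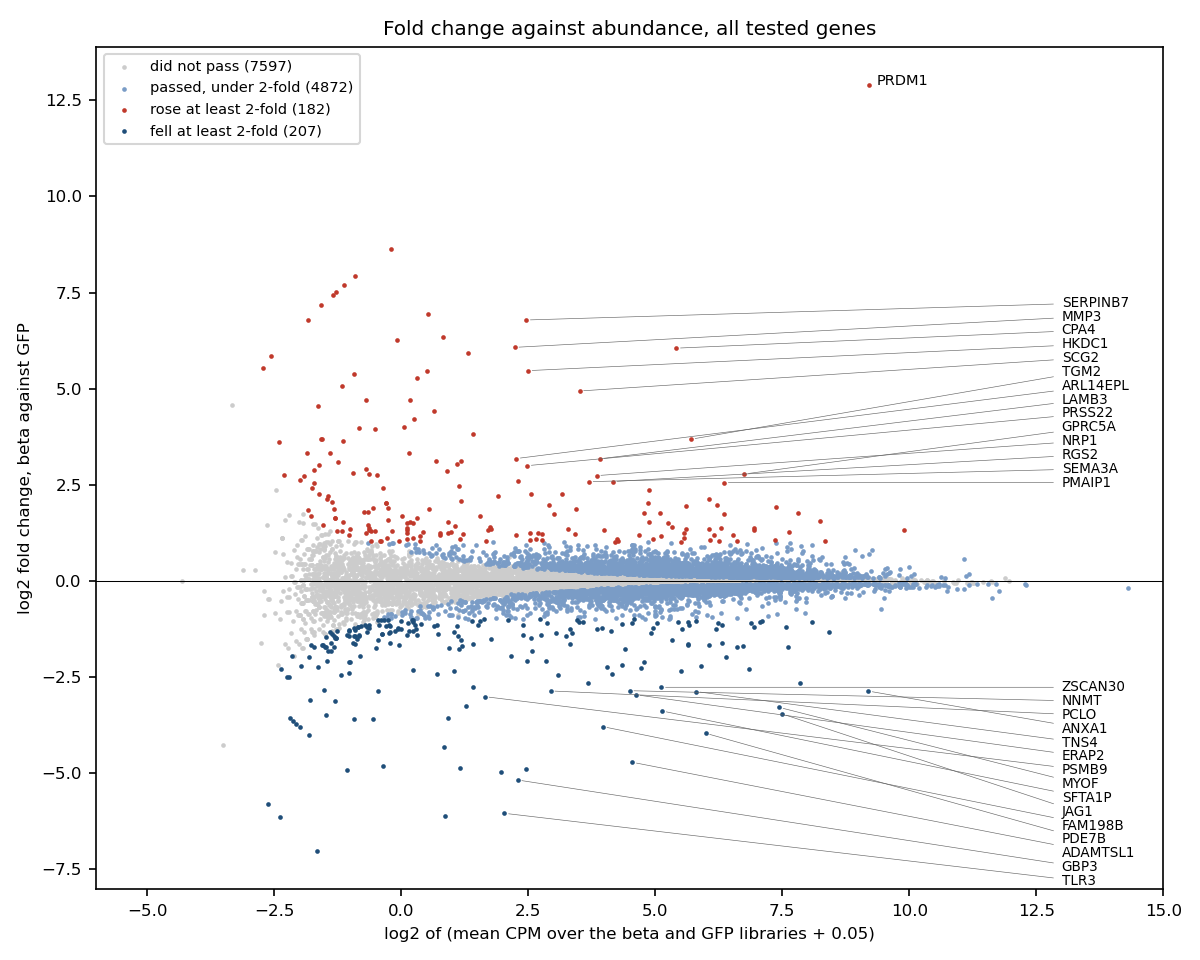
Log2 fold change of beta against GFP (vertical axis) against the log2 of the mean CPM over both groups plus 0.05 (horizontal axis), with 1 point per tested gene; red and dark blue points changed at least 2-fold, light blue points passed the test with a smaller change and grey points did not pass. PRDM1 stands alone at 12.89, and the named rises and falls span from 6.79 for SERPINB7 to -6.05 for TLR3.

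The GFP libraries were themselves set beside wild type. GFP differed from wild type for 2444 genes (19%), of which 1133 were higher (8.81%) and 1311 lower (10.2%), but at least 2-fold for 18 (0.14%). These differences followed the GC content of the genes (Spearman -0.66 across genes, which are not independent), whereas those of beta against GFP did so less (0.14). With the trend along GC content removed, 60 genes were higher and 57 lower with GFP than in wild type, in place of 1133 and 1311. Without wild type replicate 2 they numbered 270 and 375, and without GFP replicate 2 536 and 543. Set against wild type in place of GFP, beta gave 3175 rises (24.7%) and 2844 falls (22.1%), together 46.8%. Of the 182 genes at least 2-fold higher against GFP, 171 were also higher against wild type and none was lower. Of the 207 falls 183 were also lower and none was higher. For 7 of the rises the GFP libraries were themselves at least 2-fold lower than wild type (0.0933% of all tested genes were), namely APOBEC3A, CEND1, CSNK1E, HR, NEURL2, PSD3 and SCLY, named here after their values were seen. None of them is described further.

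A part of the genes of the cell's own antiviral defence fell with beta. Interferons act through receptors, JAK kinases and STAT and IRF factors to induce effector genes that block viruses, and sensors of viral RNA start the response. Among the sensors, TLR3, the endosomal receptor for double-stranded RNA, was at 7.59 and 8.36 CPM with GFP and 0 and 0.207 CPM with beta. TLR3 fell by 6.05 ± 0.70 (adjusted p = 6.94e-21), from 423 to 5 counts, a count ratio of 69.1 (95% interval 29.4 to 214). It is among the 15 largest falls, for which a lack of overlap between the groups was a condition of the choice. Of the cytosolic RNA sensors, DDX58 (RIG-I) fell by 1.02 ± 0.17 and IFIH1 (MDA5) fell by 0.82 ± 0.13, and IKBKE, a kinase that activates IRF factors, fell by 0.79 ± 0.12. Of 16 sensing genes tested 5 fell (31.2%, beside 18% of all tested genes) and 2 rose. The rises were those of the adaptor TRAF3 and of the DNA sensor IFI16, at 0.590 and 0.327 CPM with GFP and 1.21 and 0.703 CPM with beta, but neither was stable. Without GFP replicate 2 TRAF3 was at 0.125 and IFI16 at 0.65, without beta replicate 1 IFI16 was at 0.64, and none of these passed.

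Interferon-induced effectors followed the same direction for the most part. Of 39 tested, 21 fell (53.8%, beside 18% of all tested genes), 7 of them at least 2-fold, 1 rose and 17 did not pass, with a median of -0.21. GBP3, a guanylate binding protein that restricts intracellular pathogens, was at 8.97 and 9.92 CPM with GFP and 0.210 and 0.290 CPM with beta and fell by 5.19 ± 0.45 (adjusted p = 4.18e-23). It was the only one of 7 guanylate binding protein genes with enough counts to be tested. IFIT1, which binds viral RNA that lacks the host cap, was at 3.42 and 3.27 CPM with GFP and 0.105 and 0.207 CPM with beta and fell by 4.33 ± 0.57. TRIM5, which restricts retroviral capsids, was at 13.7 and 14.9 CPM with GFP and 2.73 and 2.52 CPM with beta and fell by 2.44 ± 0.15. For all 3 genes the beta libraries lay far under both GFP libraries. For GBP3, among the 15 largest falls, a lack of overlap was a condition of the choice. LGALS3BP, a secreted glycoprotein, fell by 2.77 ± 0.30, and OAS3, which makes the activator of RNase L, fell by 0.62 ± 0.05. HELZ2, a helicase coactivator, was the 1 that rose, by 0.35, and it was at 0.20 without GFP replicate 2 (adjusted p = 0.0576).

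The response was not uniform across the pathway. MX1, a classic effector that blocks viral ribonucleoproteins, was at 63.5 and 64.8 CPM with GFP and 69.1 and 65.9 CPM with beta, and its difference of 0.08 ± 0.05 did not pass (adjusted p = 0.17). ISG15, a ubiquitin-like effector, was at 39.7 and 35.4 CPM with GFP and 32.1 and 35.1 CPM with beta, and its difference of -0.14 ± 0.06 did not pass either (adjusted p = 0.0537). Neither did the transcription factors IRF1 (-0.03 ± 0.09) and IRF9 (-0.20 ± 0.16), which help to carry the interferon signal. Of 29 tested receptors, JAK-STAT members and IRF factors 10 rose (34.5%) and 5 fell (17.2%), beside 22.9% and 18% over all tested genes, with a median of 0.04 that was -0.06 against wild type. The rises numbered 6 without GFP replicate 1 and 5 without GFP replicate 2 or beta replicate 1, and the falls 3 without GFP replicate 1 or beta replicate 2. USP18, which damps signalling at the interferon receptor, fell by 1.45 ± 0.12, from 13.6 and 14.0 CPM to 5.67 and 4.51 CPM. STAT6, the STAT factor of interleukin-4 signalling, rose by 0.51 ± 0.04 and STAT3 rose by 0.30 ± 0.04. PTPN1, a phosphatase of JAK kinases, fell by 0.38 ± 0.04.

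Transcripts for several steps of peptide supply to major histocompatibility complex (MHC) class I were lower. Proteasomes cut proteins to peptides, TAP pumps them into the endoplasmic reticulum, ERAP enzymes trim them and tapasin (TAPBP) loads them on class I molecules. Of 22 tested genes of this route 12 fell (54.5%, beside 18% of all tested genes), 6 of them at least 2-fold, 4 rose and 6 did not pass, with a median of -0.31, and 2 rose without beta replicate 2. PSMB9, an interferon-inducible catalytic subunit of the immunoproteasome, was at 5.16 and 5.82 CPM with GFP and 0.787 and 0.579 CPM with beta and fell by 3.02 ± 0.29. PSME2, which forms an activator cap of the proteasome with PSME1, was at 118 and 123 CPM with GFP and 39.4 and 39.1 CPM with beta and fell by 1.61 ± 0.05, and PSME1 fell by 1.25 ± 0.05. ERAP2, the trimming peptidase, was at 43.4 and 43.7 CPM with GFP and 5.77 and 5.34 CPM with beta and fell by 2.97 ± 0.10 (adjusted p = 3.99e-33). TAPBP was at 62.1 and 58.3 CPM with GFP and 20.3 and 21 CPM with beta and fell by 1.53 ± 0.06. In each of these genes both beta libraries lay under both GFP libraries. Over all tested genes 67.9% had no overlap between the 2 groups. For PSMB9 and ERAP2, among the 15 largest falls, a lack of overlap was a condition of the choice.

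The class I molecules themselves moved little. B2M, their light chain, fell by 0.38 ± 0.03, and HLA-B fell by 0.36 ± 0.06. HLA-E, a class I molecule read by natural killer cells, rose by 0.33 ± 0.04, while HLA-C was at 0.07 ± 0.03 and did not pass (adjusted p = 0.0503). Reads of these similar genes may have been split between them, as the treatment of shared reads is unknown.

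**Figure D2:**
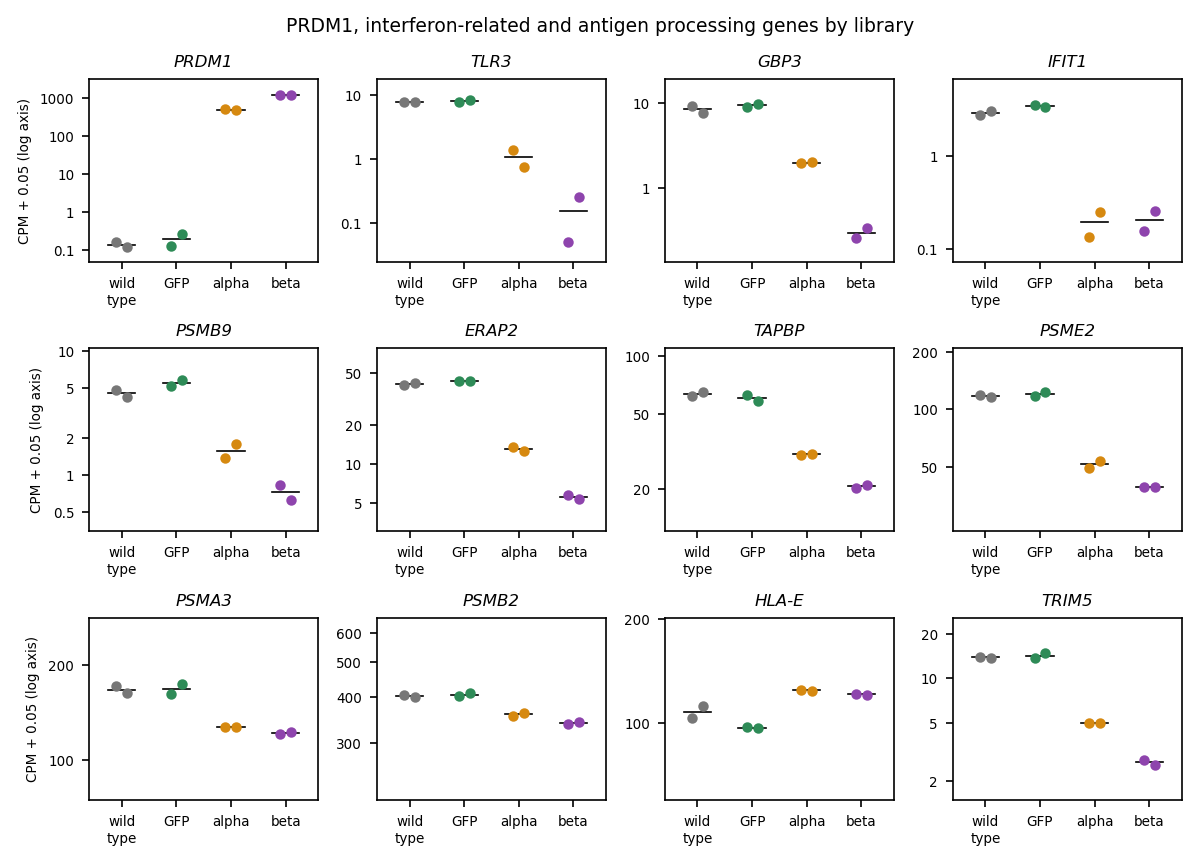
CPM plus 0.05 on a log axis for PRDM1 and 11 genes of antiviral defence, antigen processing and the proteasome, with 1 point per library and a bar at the mean of 2 libraries in wild-type, GFP, alpha and beta cells. Of the 12 genes HLA-E alone differed between GFP and wild type by the test. TLR3, GBP3, PSMB9, ERAP2, TAPBP, PSME2 and TRIM5 are lower with beta than with alpha.

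The promoters of 8 genes that fell at least 2-fold are shown because they hold matches to the letters that PRDM1 and IRF factors are known to bind. Matches also lie in windows of genes that rose at least 2-fold, POSTN, TFPI and PPARG among them, which are not shown. Searched on both strands were GAAAGT and AGNGAAAG, built around the PRDM1 core, and the repeat of an interferon-stimulated response element, which is GAAA, any 2 bases and GAAA again. The motifs overlap, and a stretch may match more than 1. Windows run from 250 bases before to 50 bases after the gene's start (RefSeq, GRCh38.p14), are written along the gene's strand, and have every matching base in capitals. They lie at chr4:186068906-186069205, plus strand (TLR3), chr1:89022817-89023116, minus strand (GBP3), chr10:89392373-89392672, plus strand (IFIT1), chr11:5685025-5685324, minus strand (TRIM5), chr6:33314029-33314328, minus strand (TAPBP), chr14:24135944-24136243, plus strand (PSME1), chr14:24146561-24146860, minus strand (PSME2) and chr9:18473903-18474202, plus strand (ADAMTSL1). Each covers promoter and the first bases of the transcript.
TLR3: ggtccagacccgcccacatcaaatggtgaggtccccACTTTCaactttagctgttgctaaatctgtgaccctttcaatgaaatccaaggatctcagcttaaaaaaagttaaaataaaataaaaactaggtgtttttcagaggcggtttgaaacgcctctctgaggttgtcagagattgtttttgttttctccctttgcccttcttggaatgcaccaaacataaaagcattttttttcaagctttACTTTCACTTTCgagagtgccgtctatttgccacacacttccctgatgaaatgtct
GBP3: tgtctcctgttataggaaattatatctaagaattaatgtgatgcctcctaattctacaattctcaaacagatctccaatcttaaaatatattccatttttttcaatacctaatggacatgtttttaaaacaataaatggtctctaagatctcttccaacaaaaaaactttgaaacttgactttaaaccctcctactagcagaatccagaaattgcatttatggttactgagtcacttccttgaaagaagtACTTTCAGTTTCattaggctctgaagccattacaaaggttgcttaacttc
IFIT1: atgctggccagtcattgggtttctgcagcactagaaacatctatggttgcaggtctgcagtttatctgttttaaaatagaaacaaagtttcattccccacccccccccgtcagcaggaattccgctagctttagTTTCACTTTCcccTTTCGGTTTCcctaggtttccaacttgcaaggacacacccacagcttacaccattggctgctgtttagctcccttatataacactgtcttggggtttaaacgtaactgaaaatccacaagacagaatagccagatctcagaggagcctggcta
TRIM5: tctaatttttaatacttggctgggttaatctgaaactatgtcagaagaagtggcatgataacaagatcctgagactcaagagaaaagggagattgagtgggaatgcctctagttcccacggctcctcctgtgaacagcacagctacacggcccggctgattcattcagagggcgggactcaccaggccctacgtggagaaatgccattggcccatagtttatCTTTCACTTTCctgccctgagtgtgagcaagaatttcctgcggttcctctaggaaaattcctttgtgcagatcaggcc
TAPBP: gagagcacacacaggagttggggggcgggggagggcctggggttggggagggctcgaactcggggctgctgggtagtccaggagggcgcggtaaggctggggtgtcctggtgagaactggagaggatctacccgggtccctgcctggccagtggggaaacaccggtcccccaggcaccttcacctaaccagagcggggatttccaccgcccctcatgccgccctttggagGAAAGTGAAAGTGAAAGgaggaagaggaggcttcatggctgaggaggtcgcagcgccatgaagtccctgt
PSME1: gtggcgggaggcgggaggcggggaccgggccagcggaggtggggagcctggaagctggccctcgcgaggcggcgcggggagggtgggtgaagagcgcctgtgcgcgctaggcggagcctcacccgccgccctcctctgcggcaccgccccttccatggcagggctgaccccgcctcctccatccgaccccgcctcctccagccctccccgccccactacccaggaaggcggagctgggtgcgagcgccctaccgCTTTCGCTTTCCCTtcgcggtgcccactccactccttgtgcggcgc
PSME2: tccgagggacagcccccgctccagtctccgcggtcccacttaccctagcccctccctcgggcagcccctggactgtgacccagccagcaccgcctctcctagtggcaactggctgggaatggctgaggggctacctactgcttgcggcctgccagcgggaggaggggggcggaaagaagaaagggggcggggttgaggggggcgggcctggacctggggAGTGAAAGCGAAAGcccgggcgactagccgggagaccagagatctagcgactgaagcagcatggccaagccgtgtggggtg
ADAMTSL1: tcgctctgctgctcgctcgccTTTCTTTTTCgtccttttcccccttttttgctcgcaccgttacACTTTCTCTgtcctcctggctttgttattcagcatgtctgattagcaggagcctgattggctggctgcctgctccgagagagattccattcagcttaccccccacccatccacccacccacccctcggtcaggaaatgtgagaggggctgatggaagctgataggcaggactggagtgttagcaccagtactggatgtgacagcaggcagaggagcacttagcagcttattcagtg
TAPBP held 6 matches in 1 stretch and TLR3 held 5, of which 4 lay around the start and 1 farther upstream, while the other 6 promoters held 2 or 3 each.

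Such matches were common among antiviral genes whether or not they fell. Of the 21 interferon-induced effectors that fell, windows were at hand for 19, of which 13 held a match to any of the 3 motifs. Of the 17 that did not pass, windows were at hand for 14, of which 12 held a match. Of the 12 class I genes that fell 11 had a window and 6 of those a match, and PSMB9, PSMB8 and ERAP2 had none in the window. Over all 35116 promoter windows listed by RefSeq, 21.2% held a match to any motif, 13.3% to GAAAGT, 7.99% to AGNGAAAG and 3.57% to the GAAA repeat. Over all tested genes with a window 16.6% held a match, 22.6% of those that fell by less than 2-fold and 12.9% of those that rose by less than 2-fold. The mean GC content of the windows also differed between the last 2 sets, at 63.2% and 67.4%, and its part in the shares was not tested. Windows were at hand for only 70.5% of the 2-fold falls and 70.3% of the 2-fold rises, so the check is void for these sets and their shares are not given.

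The constitutive proteasome was lower by small steps. Of 14 core subunits tested 11 fell (78.6%, beside 18% of all tested genes), none of them 2-fold, none rose and 3 did not pass, with a median of -0.12. PSMA3, an alpha ring subunit, was at 162 and 174 CPM with GFP and 121 and 122 CPM with beta and fell by 0.46 ± 0.04. PSMB2, a beta ring subunit, was at 403 and 409.7 CPM with GFP and 337 and 341 CPM with beta and fell by 0.25 ± 0.03. Genes of cytoplasmic ribosomal proteins showed smaller differences in the same direction, with 25 falls (50%, beside 18% of all tested genes) and 2 rises among 50 tested and a median of -0.08. Without beta replicate 1 the falls numbered 16, and across the 4 libraries left out in turn 16 to 30. RPL24 fell by 0.27 ± 0.03 and RPS12 fell by 0.18 ± 0.03. The rises, in RPS28 and RPLP1, depended on the control, with RPLP1 at -0.11 and RPS28 at 0.01 against wild type.

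Some of the largest falls were in abundant transcripts outside immunity. JAG1, a ligand of Notch receptors, was at 323 and 338 CPM with GFP and 30.6 and 29 CPM with beta and fell by 3.46 ± 0.05 (adjusted p = 3.66e-48). ANXA1, a calcium-dependent membrane-binding protein of inflammation, was at 1007 and 1052 CPM with GFP and 139.7 and 140 CPM with beta and fell by 2.87 ± 0.04. MYOF, a ferlin of membrane repair, was at 314 and 316 CPM with GFP and 32.3 and 31.6 CPM with beta and fell by 3.30 ± 0.05. All 3 genes were abundant in every GFP library. They are among the 15 largest falls, for which a lack of overlap between the groups was a condition of the choice. PDE7B, a phosphodiesterase that breaks down cyclic AMP, was at 118 and 121 CPM with GFP and 7.66 and 7.53 CPM with beta and fell by 3.97 ± 0.09. Of 12 phosphodiesterases tested 2 rose and 2 fell, 16.7% each and no more than over all tested genes. ADAMTSL1, a secreted matrix protein without protease activity, was at 45.6 and 44.5 CPM with GFP and 1.63 and 1.74 CPM with beta and fell by 4.73 ± 0.17. TNS4, a tensin that links integrins to signalling, was at 100 and 96.5 CPM with GFP and 14.2 and 12.4 CPM with beta and fell by 2.88 ± 0.07.

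Further falls among the 15 largest covered unlike functions. FAM198B, a Golgi membrane protein, fell by 3.80 ± 0.16, and the non-coding SFTA1P fell by 3.39 ± 0.10. NNMT, which methylates nicotinamide, was at 40.0 and 39.5 CPM with GFP and 4.72 and 6.0 CPM with beta and fell by 2.86 ± 0.11. PCLO, a scaffold of the presynaptic zone, fell by 2.87 ± 0.19, and ZSCAN30, a zinc finger protein, fell by 2.77 ± 0.09. Libraries that did not overlap were a condition for a place among these 15.

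The rest of the Notch pathway did not share the size of the JAG1 fall. Of 36 tested Notch genes 14 rose (38.9%) and 7 fell (19.4%), beside 22.9% and 18% over all tested genes, with a median of 0.08 and 2 falls of at least 2-fold. The rises numbered 8 without GFP replicate 2. The second ligand JAG2 rose by 0.34 ± 0.04. The receptor NOTCH1 rose by 0.23 ± 0.08 (adjusted p = 0.0477), and NOTCH2 was at -0.10 ± 0.05 and did not pass (adjusted p = 0.16). Of the nuclear partners, RBPJ rose by 0.18 ± 0.04, MAML1 rose by 0.28 ± 0.04 and MAML2 fell by 1.43 ± 0.32. Of the target genes, HES1 fell by 0.25 ± 0.08 and HEY1 fell by 0.69 ± 0.16, while HES4 rose by 0.39 ± 0.07. HES4 did not pass once the trend along GC content was removed (0.01), and 9 members then rose and 10 fell.

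Proteases and protease inhibitors included, PRDM1 aside, the 3 largest rises among genes of at least 5 CPM with beta and libraries that did not overlap. SERPINB7, an inhibitor of serine proteases, was at 0.0787 and 0.109 CPM with GFP and 10.9 and 10.8 CPM with beta, a count ratio of 114 (95% interval 48.7 to 354), and rose by 6.79 ± 0.67. MMP3, a metalloproteinase that digests matrix, was at 0.118 and 0.145 CPM with GFP and 9.81 and 8.56 CPM with beta, a count ratio of 68.9 (95% interval 33.1 to 173), and rose by 6.07 ± 0.61. CPA4, a carboxypeptidase, was at 1.5 and 1.05 CPM with GFP and 86.2 and 81.8 CPM with beta and rose by 6.05 ± 0.18 (adjusted p = 4.52e-42). SERPINB7 and MMP3 went from near the detection limit to clear expression in both beta libraries. CPA4 was low but clearly detected with GFP, at 38 and 29 counts. PRSS22, a serine protease, rose by 2.99 ± 0.22. MMP1, a collagenase next to MMP3, went from 4 to 89 counts, a count ratio of 27.2 (95% interval 10.3 to 102).

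Of 16 protease inhibitors tested 13 rose (81.2%, beside 22.9% of all tested genes), 1 fell and 2 did not pass, with a median of 0.42. SERPINB9, which blocks granzyme B, was at 67.8 and 69.5 CPM with GFP and 189 and 167 CPM with beta and rose by 1.38 ± 0.05, and SERPINH1, a collagen chaperone, rose by 0.56 ± 0.04. SPINT2, a membrane-bound inhibitor, was the exception and fell by 1.33. Of 21 tested genes of the MMP, ADAM and ADAMTS families 9 rose (42.9%) and 2 fell (9.52%), beside 22.9% and 18% over all tested genes. Their median was 0.13, and the list includes ADAMTSL genes such as ADAMTSL1, which lacks protease activity. The falls were those of ADAMTSL1 and ADAMTS9. The rises numbered 7 against wild type and 6 to 8 with a library left out. Coagulation and plasminogen genes counted 8 rises (66.7%, beside 22.9% of all tested genes) and no fall among 12, with a median of 0.31. Among them PROS1, an anticoagulant cofactor, rose by 0.61 ± 0.06 and TFPI, an inhibitor of tissue factor, rose by 1.39 ± 0.20.

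Matrix and adhesion genes rose in part. LAMB3, a laminin chain of epithelial anchorage, was at 3.23 and 2.76 CPM with GFP and 28.7 and 25.2 CPM with beta and rose by 3.17 ± 0.13. COL13A1, a membrane collagen, was at 4.25 and 5.02 CPM with GFP and 17.7 and 16.4 CPM with beta and rose by 1.88 ± 0.12, and LAMA1 rose by 1.97 ± 0.14. Of 22 collagen, laminin and related chains tested 8 rose (36.4%), 2 fell (9.09%) and 12 did not pass, with a median of 0.25 that was 0.02 against wild type. Over all tested genes 22.9% rose and 18% fell. One of the falls in the list, COL5A2, lost the call in most alternatives. Of 12 integrins 5 rose (41.7%, beside 22.9% of all tested genes). ITGA6, a laminin receptor chain, was at 104 and 109 CPM with GFP and 227 and 216 CPM with beta and rose by 1.06 ± 0.04. ITGA2, a collagen receptor chain, was the 1 that fell, and it did not pass without GFP replicate 1 (-0.21), without beta replicate 2 (-0.23) or against wild type (-0.15).

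TGM2, a transglutaminase that cross-links proteins, was at 8.34 and 6.83 CPM with GFP and 97.2 and 96.0 CPM with beta and rose by 3.68 ± 0.09. It belongs to a list of squamous differentiation genes, of which 10 of 48 were tested and 4 rose (40%, beside 22.9% of all tested genes). The other rises were those of PADI1 and PADI3, enzymes that convert arginine to citrulline, and of the desmosomal cadherin DSG2. TGM2 is also in the list of epithelial and mesenchymal genes, where 6 of 11 rose (54.5%) and 2 fell (18.2%), beside 22.9% and 18% over all tested genes. There AXL, a receptor kinase, was at 369 and 344 CPM with GFP and 637 and 604 CPM with beta and rose by 0.81 ± 0.03, SNAI2, a repressor of epithelial genes, rose by 1.16 ± 0.30, and OCLN, a tight junction protein, fell by 0.17 ± 0.06. Of 9 enterocyte genes 4 rose (44.4%) and 3 fell (33.3%), beside the same 22.9% and 18%, and none of them changed 2-fold. KRT80, a type II keratin outside these lists, was at 103 and 103 CPM with GFP and 347 and 349 CPM with beta and rose by 1.76 ± 0.04, and was named after its values were seen.

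Among the 15 largest rises stood a gene of regulated secretion and several receptors and ligands, which were not fixed as a list. SCG2, a secretogranin of dense-core granules, was at 0.630 and 0.800 CPM with GFP and 21.3 and 22.6 CPM with beta and rose by 4.94 ± 0.25. GPRC5A, an orphan receptor of epithelial cells, was at 27.9 and 27.3 CPM with GFP and 194 and 182 CPM with beta and rose by 2.78 ± 0.05. Outside those 15, GRPR, the receptor of gastrin-releasing peptide, was at 10.4 and 8.76 CPM with GFP and 49.0 and 48.9 CPM with beta and rose by 2.37 ± 0.08. In these 3 genes the beta libraries lay well over the GFP libraries, and for SCG2 and GPRC5A a lack of overlap was a condition of the choice. The guidance ligand SEMA3A rose by 2.58 ± 0.12 and its coreceptor NRP1 rose by 2.73 ± 0.12, from 3.58 and 3.93 CPM to 25.1 and 24.7 CPM. RGS2, which switches off G proteins, rose by 2.58 ± 0.10. Of 19 secretion genes tested 9 rose (47.4%) and 3 fell (15.8%), beside 22.9% and 18% over all tested genes, with a median of 0.17, and PAM, which amidates peptide hormones, rose by 0.98 ± 0.04.

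Metabolic genes held a few large rises within lists that otherwise split. HKDC1, a hexokinase, was at 0.275 and 0.218 CPM with GFP and 10.2 and 11.6 CPM with beta and rose by 5.47 ± 0.41. SLC2A3, the glucose transporter GLUT3, was at 537 and 544 CPM with GFP and 1317 and 1384 CPM with beta and rose by 1.33 ± 0.03. SLC2A14, a near-identical copy beside it, rose by 1.40 ± 0.07, and reads of the pair could have been shared. Of 26 glycolysis genes 7 rose (26.9%) and 9 fell (34.6%), beside 22.9% and 18% over all tested genes. Against wild type 7 were higher and 13 lower, beside 24.7% and 22.1% of all tested genes. GFP itself was higher than wild type for 1 and lower for 11, beside 8.81% and 10.2% of all tested genes. PKM, pyruvate kinase, fell by 0.46 ± 0.03 and GAPDH fell by 0.27 ± 0.03. Of 31 genes of fatty acid activation and lipid synthesis 13 rose (41.9%) and 7 fell (22.6%), beside the same 22.9% and 18%. ACSL5, which activates long-chain fatty acids, went from 4 to 209 counts, a count ratio of 64.0 (95% interval 24.6 to 237).

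**Figure D3:**
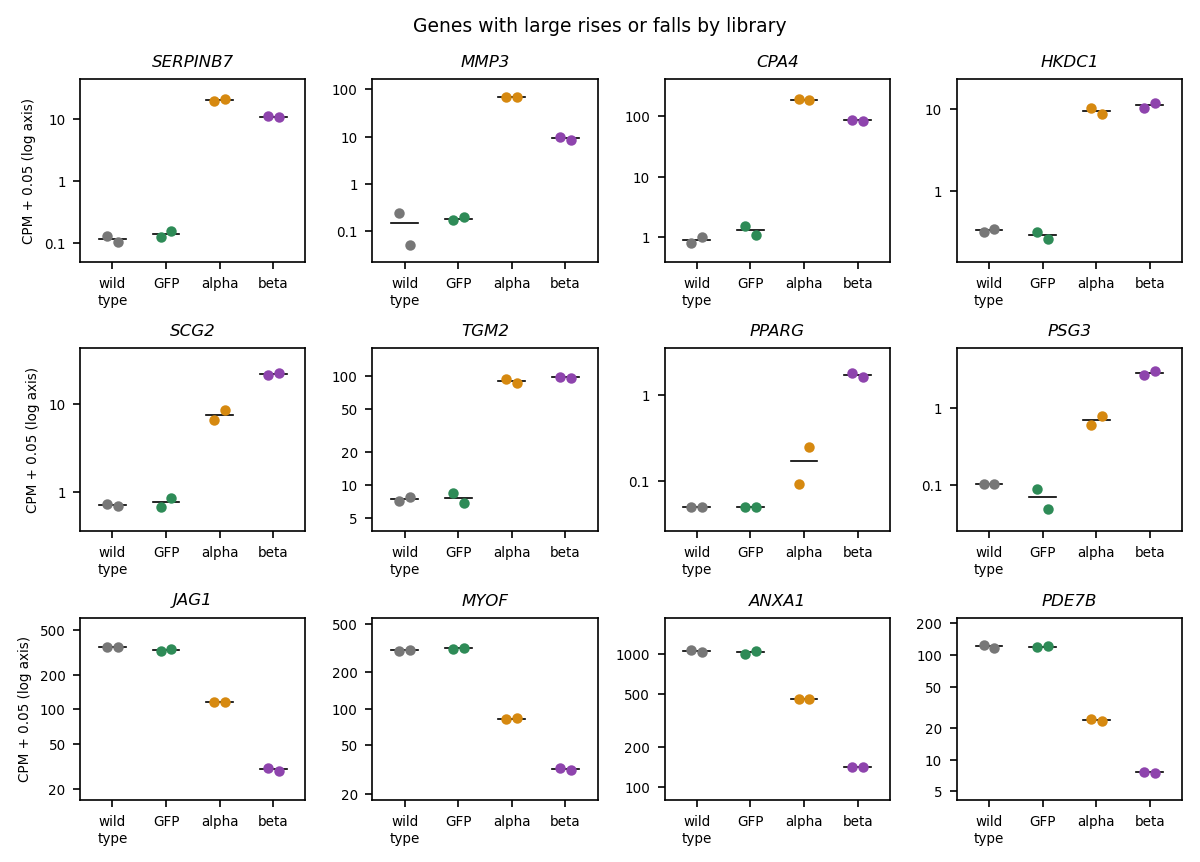
CPM plus 0.05 on a log axis for 8 genes that rose and 4 that fell with beta, with 1 point per library and a bar at the mean of 2 libraries in wild-type, GFP, alpha and beta cells. Beta libraries stand apart from wild-type and GFP libraries in every panel, and PPARG had 0 counts in both GFP libraries. The genes were chosen for their large changes with beta.

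Several genes were close to silent on one side of the comparison. At most 0.2 CPM in both GFP libraries and at least 2 CPM in both beta libraries were found for ACSL5, FERMT2, KIAA1755, MMP3, PADI3, PLEKHA7, POSTN, PSG3 and SERPINB7. FERMT2, a kindlin that activates integrins, went from 2 to 147 counts, a count ratio of 90.0 (95% interval 24.5 to 750). POSTN, a matrix protein that is also on the fibroblast list, went from 3 to 114 counts, a count ratio of 46.5 (95% interval 15.5 to 229). PSG3, a pregnancy-specific glycoprotein whose reads may be shared with its near-identical relatives, went from 1 to 121 counts, a count ratio of 148 (95% interval 26.1 to 5900). PLEKHA7, a junction protein, went from 6 to 94 counts, a count ratio of 19.2 (95% interval 8.49 to 53.6). The reverse held for KIF5C, a kinesin motor of neurons, with 185 counts over both GFP libraries and 2 over both beta libraries, a count ratio of 75.6 (95% interval 20.6 to 629). It also held for GPR158, an orphan receptor, with 223 and 6 counts, a count ratio of 30.4 (95% interval 13.7 to 83.6). PPARG, a nuclear receptor of fat cell differentiation, had 0 counts in both GFP libraries and 33 and 37 counts in the beta libraries, which is at least 28.6-fold higher against a limit of 3 counts over both GFP libraries together.

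Other transcription factors changed in both directions. Of 61 factors of cell identity tested 15 rose (24.6%) and 14 fell (23%), shares near those over all tested genes. The introduced PRDM1 is itself a member of this list and is counted among the rises. FOXD1, a forkhead factor, was at 18.7 and 21.5 CPM with GFP and 79.9 and 75.0 CPM with beta and rose by 1.95 ± 0.06. NR2F2, an orphan nuclear receptor, was at 39.1 and 36.8 CPM with GFP and 97.2 and 93.4 CPM with beta and rose by 1.34 ± 0.05, while its relative NR2F1 fell by 0.91 ± 0.06. ETV1, an ETS factor, fell by 1.37 ± 0.11, and TFAP2A fell by 1.36 ± 0.12.

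Genes that PRDM1 is known to repress in lymphocytes did not move together. Of 11 tested 3 rose and 3 fell, 27.3% each and near the shares over all tested genes. ID3, an inhibitor of basic helix-loop-helix factors, was at 111 and 108 CPM with GFP and 47.2 and 50.6 CPM with beta and fell by 1.15 ± 0.05, while BCL6, the germinal centre repressor, rose by 0.58 ± 0.11. TCF7, a Wnt and T cell factor, rose by 0.29 ± 0.05. MYC, a classic target there, was at 324 and 344 CPM with GFP and 339 and 338 CPM with beta and its difference of 0.03 ± 0.03 did not pass (adjusted p = 0.531). In the MYC and MAX network 6 of 11 rose (54.5%) and none fell, beside 22.9% and 18% over all tested genes. Against wild type 8 were higher and 2 lower, and with the trend along GC content removed 1 was lower than GFP. Among the rises were the MYC antagonists MXD4, which rose by 0.82 ± 0.07, MXD1, which rose by 0.69 ± 0.07, and MNT, which rose by 0.55 ± 0.08. Of 14 corepressors and chromatin partners of PRDM1 5 rose (35.7%) and 6 fell (42.9%), beside the same 22.9% and 18%. TLE1, a Groucho corepressor, was at 16.2 and 16.1 CPM with GFP and 31.1 and 29.6 CPM with beta, higher by 0.92.

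Signalling feedback genes split by pathway. Of 29 AP-1 and immediate early genes 19 rose (65.5%) and 4 fell (13.8%), beside 22.9% and 18% over all tested genes, with a median of 0.33, and 2 fell without beta replicate 2. IER3, a stress-induced survival gene, was at 19.0 and 21 CPM with GFP and 56.5 and 55.6 CPM with beta and rose by 1.49 ± 0.07, and the AP-1 subunits FOSL1, JUND and JUN rose by 0.60 ± 0.04, 0.83 ± 0.07 and 0.65 ± 0.06. CYR61, a matricellular protein also used as a Hippo target, fell by 0.55 ± 0.04. ERK feedback genes counted 9 rises and 9 falls among 28 (32.1% each, beside the same 22.9% and 18%). SPRY2, an inhibitor of receptor kinase signalling, was at 68.0 and 68.2 CPM with GFP and 30.6 and 32.9 CPM with beta and fell by 1.09 ± 0.06. SPRY4, its relative, rose by 0.63 ± 0.04, and DUSP5, a phosphatase of ERK, rose by 1.00 ± 0.07.

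Of 37 TGF-beta and BMP genes 14 rose (37.8%) and 11 fell (29.7%), beside 22.9% and 18% over all tested genes. SMAD3, the factor that carries the TGF-beta signal, was at 101 and 99.1 CPM with GFP and 57.2 and 54.9 CPM with beta and fell by 0.83 ± 0.05. ID2 rose by 1.31 ± 0.10 while ID3 fell, and SKIL, an inhibitor of SMAD factors, rose by 0.77 ± 0.07. TGFB2, a ligand of the pathway, was at 0.708 and 0.436 CPM with GFP and 0 and 0.0828 CPM with beta and fell by 3.50 ± 1.11, at levels near the detection limit with beta. Among Wnt feedback and stem cell genes 8 of 23 rose and 8 fell (34.8% each, beside 22.9% and 18% over all tested genes). These counts were 5 for rises without GFP replicate 2 and 5 for falls without beta replicate 2. AXIN2, a feedback inhibitor induced by Wnt, was at 91.7 and 90.4 CPM with GFP and 46.4 and 47.1 CPM with beta and fell by 0.95 ± 0.05. Of 19 Hippo target genes 5 rose (26.3%) and 10 fell (52.6%), beside the same 22.9% and 18%, the falls numbering 6 without GFP replicate 1. ANKRD1, a stretch-induced ankyrin repeat protein, fell by 1.84 ± 0.16.

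Most cytokine genes had too few counts to be tested. Of 37 listed 11 had enough counts, of which 8 fell (72.7%, beside 18% of all tested genes), 1 rose and 2 did not pass, with a median of -0.99. The falls numbered 5 without beta replicate 2 and 6 or 7 without another library. CSF1, the macrophage growth factor, was at 19.1 and 18.4 CPM with GFP and 8.45 and 10.1 CPM with beta and fell by 0.99 ± 0.09. IL7, a lymphocyte survival factor, went from 64 to 7 counts, a count ratio of 7.47 (95% interval 3.42 to 19.3). IL11 was the 1 that rose, by 0.69. Of 24 NF-kB factors and feedback genes 4 rose (16.7%) and 6 fell (25%), shares near those over all tested genes, and BIRC3, an inhibitor of apoptosis, was at 9.09 and 8.80 CPM with GFP and 2.26 and 1.95 CPM with beta and fell by 2.09 ± 0.17. Of that list 12 were lower against wild type in place of 6, and 3 were lower than GFP without beta replicate 2.

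Cell cycle and stress genes changed by small amounts. Of 44 mitosis genes 27 fell (61.4%, beside 18% of all tested genes) and 2 rose, none of them 2-fold, with a median of -0.11. Against wild type 21 were lower and 5 higher, beside 22.1% and 24.7% of all tested genes, with a median of -0.09. NCAPD2, a condensin subunit, was at 412 and 397 CPM with GFP and 304 and 305 CPM with beta and fell by 0.40 ± 0.03, and TOP2A fell by 0.28 ± 0.03. Of 38 DNA replication genes 14 fell (36.8%) and 5 rose (13.2%), beside 18% and 22.9% over all tested genes. TYMS, thymidylate synthase, fell by 0.54 ± 0.04, and RRM2, a subunit of ribonucleotide reductase, rose by 0.44 ± 0.03. Among 34 cyclins, CDKs and their inhibitors 10 rose (29.4%) and 9 fell (26.5%), beside 22.9% and 18% over all tested genes. The inhibitor CDKN1A (p21) was at 66.9 and 68.8 CPM with GFP and 109 and 108 CPM with beta and rose by 0.69 ± 0.04, CCND2 rose by 0.62 ± 0.03 and CDK6 fell by 0.53 ± 0.04. No growth measure is at hand beside these transcripts.

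PMAIP1 (NOXA), a BH3-only protein that promotes apoptosis, was at 25.4 and 22.6 CPM with GFP and 143 and 137 CPM with beta and rose by 2.55 ± 0.05. Of 23 death receptor, caspase and BCL2 family genes 4 rose (17.4%) and 7 fell (30.4%), beside 22.9% and 18% over all tested genes. The protective MCL1 rose by 0.33 ± 0.03, and CASP4, an inflammatory caspase, fell by 0.76 ± 0.06. Of 27 unfolded protein response genes 12 rose (44.4%) and 3 fell (11.1%), beside the same 22.9% and 18%, with a median of 0.10. PPP1R15A (GADD34), which restores translation, was at 86.6 and 92.2 CPM with GFP and 149 and 145 CPM with beta and rose by 0.72 ± 0.04, and ASNS, asparagine synthetase, fell by 0.57 ± 0.04. Of 11 EGF receptor family genes and ligands 2 rose (18.2%) and 5 fell (45.5%), beside the same 22.9% and 18%. The falls numbered 3 without GFP replicate 1 or without beta replicate 1. NRG4, a ligand of ERBB4, fell by 2.44 ± 0.35. ARL14EPL, of little-known function, rose by 3.18 ± 0.23.

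**Figure D4:**
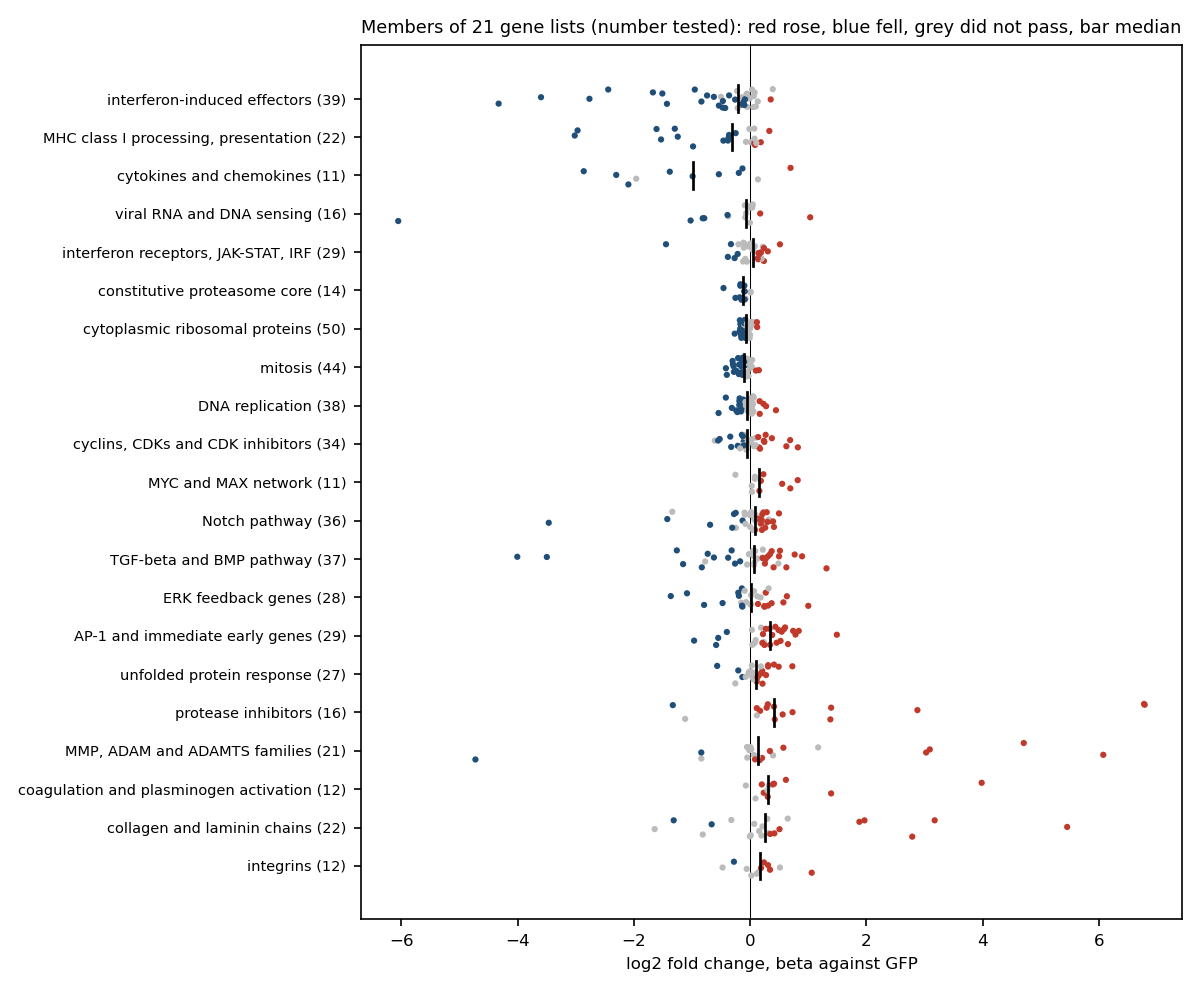
Log2 fold change of beta against GFP (horizontal axis) of the tested members of 21 gene lists, with 1 point per gene, red for genes that rose, blue for genes that fell, grey for genes that did not pass, and a black bar at the median of the list; the number tested stands in parentheses. Medians run from -0.99 for cytokines and chemokines to 0.42 for protease inhibitors, beside 0.0116 over all tested genes.

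The beta libraries were finally set beside those of the alpha form. The alpha form carries the whole PR domain. PRDM1 transcripts stood at 487 and 480.1 CPM with alpha and at 1175 and 1176 CPM with beta, so the form and the amount of transcript cannot be told apart in this comparison. Beta was higher than alpha for 359 genes (2.79%) and lower for 443 (3.45%), together 6.24% of those tested, with 17 (0.132%) and 58 (0.451%) at least 2-fold. Against the same GFP libraries alpha gave rises for 21.2% and falls for 16.3% of the genes, and since both forms share those libraries the values are given side by side only. Of the 182 rises of at least 2-fold with beta, 66 differed between the forms, with the higher level in beta for 30 and in alpha for 36. Of the 207 falls 61 differed, and in all 61 the level was lower with beta. Both sets were chosen by large changes in these same beta libraries, which favours a level further from GFP with beta. No set chosen by alpha was counted in the same way, so these counts are a description only.

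SCG2 was at 6.58 and 8.48 CPM with alpha and 21.3 and 22.6 CPM with beta, a log2 difference of 1.56 ± 0.11. GPRC5A was at 72.4 and 68.8 CPM and 194 and 182 CPM, higher with beta by 1.41 ± 0.04 (adjusted p = 5.59e-30). ID2, GRPR, CYP24A1, which degrades vitamin D, and GPNMB were likewise higher, by 0.94, 0.69, 0.72 and 0.71. STAT6 and CAB39L were higher with beta by 0.51 ± 0.04 and 0.54 ± 0.13, with STAT6 at 78.3 and 84.0 CPM with GFP, 80.4 and 81.7 CPM with alpha and 113 and 117 CPM with beta. The other direction was seen for MMP3, at 68.3 and 69.9 CPM with alpha and 9.81 and 8.56 CPM with beta, a difference of -2.92 ± 0.10. MMP1, RAB27B, a GTPase of vesicle release, and PADI1 were also lower with beta, with differences of -2.05, -2.05 and -1.76.

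Levels were lower with beta than with alpha in some of the antiviral genes named above, which were named for their changes with beta. Of the 39 interferon-induced effectors 4 and of the 22 class I genes 5 were lower with beta than with alpha, beside 3.45% of all tested genes, and none was higher, beside 2.79%. TLR3 was at 1.32 and 0.694 CPM with alpha with a difference, beta minus alpha, of -3.11 ± 0.74 (adjusted p = 1.04e-04). GBP3 was at 1.95 and 1.98 CPM with alpha, with a difference of -2.93 ± 0.47. Differences of -1.23 ± 0.12 and -1.17 ± 0.33 were measured for ERAP2 and PSMB9, whereas IFIT1 was at 0.0849 and 0.198 CPM with alpha and 0.105 and 0.207 CPM with beta, which did not differ detectably at this depth. JAG1, at 117 and 117 CPM with alpha, ANXA1, at 456 and 458 CPM, and ADAMTSL1 were lower with beta, with differences of -1.98 ± 0.05, -1.71 ± 0.04 and -1.92 ± 0.19. NAV3, a neuron navigator, was at 31.5 and 28.2 CPM with GFP, 21.5 and 21.1 CPM with alpha and 5.04 and 5.83 CPM with beta. FAM198B stood at 1.78 and 1.34 CPM with alpha and 2.05 and 2.11 CPM with beta and did not differ by the test. The counts of the direct comparison fell whichever of its 4 libraries was left out, to between 145 (without beta replicate 2) and 211 higher and between 250 (without beta replicate 2) and 288 lower in place of 359 and 443.

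**Figure D5:**
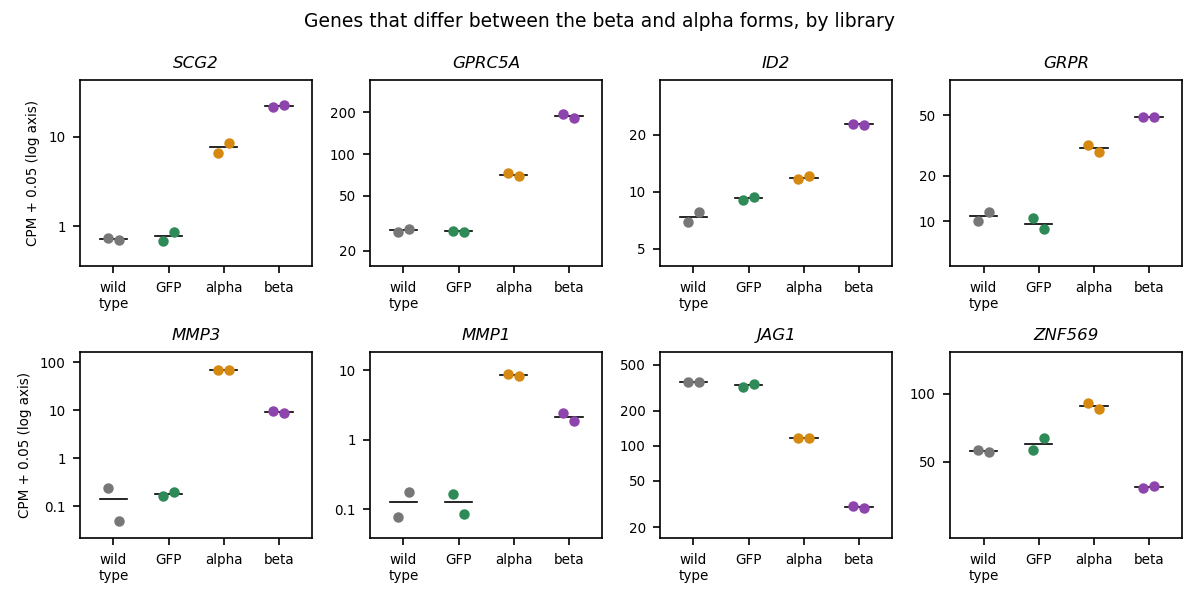
CPM plus 0.05 on a log axis for 8 genes that differ between the beta and alpha forms, with 1 point per library and a bar at the mean of 2 libraries in wild-type, GFP, alpha and beta cells. SCG2, GPRC5A, ID2 and GRPR are highest with beta, MMP3 and MMP1 are highest with alpha, JAG1 is lowest with beta, and ZNF569 is over the GFP level with alpha and under it with beta.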

How the data were processed

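Polyadenylated RNA of RKO cells was sequenced from stranded libraries, per the labels' protocols. The submitters' processing notes name the tools TopHat, Bowtie2 and Cufflinks and the build hg19. The read counter and its use of strand are not given in the sources used here. The authors deposited raw counts per gene symbol for each library. Reads without a gene (9.13% to 10.2% in the 4 libraries) and ambiguous reads (1.69% to 1.74%) were left out of totals and tests. Deposited tables that compare overexpression with knockout were not used.

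Counts of all 12 libraries were filtered with filterByExpr, scaled with TMM factors and fitted with edgeR 4.0.16 (R 4.3.3, glmQLFit with a mean per group), so that all groups share an estimate of the spread. Each comparison was tested over 12858 genes by glmQLFTest, with Benjamini-Hochberg adjusted p under 0.05 as the threshold. Standard errors are Wald errors from a dispersion that was never let under 1. The script was tested on simulated data with known changes. Count ratios carry 95% exact binomial intervals. PRDM1 and MYC were always named, with the 15 largest rises and falls of at least 5 CPM whose libraries did not overlap, up to 4 called members of a gene list by smallest p and 2 of the opposite direction, and genes switched between at most 0.2 and at least 2 CPM. Also named were the 8 largest differences each way from the alpha form among genes that passed in beta against GFP too. These had at least 5 CPM in the higher form and libraries of the 2 forms that did not overlap. Outside these rules, and chosen after their values were seen, are B2M, BCL6, HES1, HEY1, HLA-B, HLA-C, IRF1, IRF9, ISG15, JUN, KRT80, MX1, NOTCH1, NOTCH2, PPARG, RBPJ, SLC2A14, SNAI2, TFAP2A, TGFB2, the neighbouring genes of the closing section and the genes that differ in direction between the forms. Some genes that these rules name are not reported here. Members and lists were chosen with earlier results of these data known. Promoter windows come from RefSeq on GRCh38.p14, matched by symbol for 10079 of the tested genes, while counts rest on hg19. Alternatives covered DESeq2 1.42.0, other scaling and filters, a GC trend, a replicate block, libraries left out and wild type as control.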

Additional observations from a re-analysis of the deposited data

Results flagged for a closer look

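For 11 of the 12858 tested genes the beta and alpha forms differed from GFP in opposite directions, each past edgeR's quasi-likelihood test. Both forms share the GFP libraries. The difference between the forms, beta minus alpha on the log2 scale, follows from the 2 values that chose these genes and is given as a description. The zinc finger genes among them were all lower with beta and higher with alpha. The share of zinc finger genes over all tested genes was not counted, so nothing is read from their presence here. ZNF569 was at -0.62 ± 0.06 with beta and 0.57 ± 0.05 with alpha against GFP, a difference of -1.19 ± 0.06 (n = 2 libraries per group). ZNF519 differed by -0.97, ZNF227 by -0.64 and ZNF100 by -0.62. RXFP2, a receptor of insulin-like peptides, differed by -2.48 ± 0.51, at few counts, with 38 over both GFP libraries and 10 over both beta libraries. SLCO1B3, a transporter of organic anions, differed by -0.75, HSPH1, a heat shock protein, by -0.53 and APOBEC3B, a cytidine deaminase, by -0.45. EIF5A2, a translation factor, differed by -0.24 and MPRIP, a partner of myosin phosphatase, by -0.20. PREP, a prolyl peptidase, was the gene of the 11 that was higher with beta than with alpha, by 0.26 ± 0.04.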

How the results depend on the processing

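For beta against GFP, counts fell outside 1.5 times the reported ones when a change beyond 1.5-fold was tested (glmTreat), which gave 191 genes higher, 162 lower and 122 lower by at least 2-fold. With a library left out, 2205 to 2651 genes were higher and 1566 to 2012 lower, and 172 to 186 and 188 to 201 changed at least 2-fold. DESeq2's Wald test gave 2175 and 1895. Of the 389 changes of at least 2-fold, 354 kept the call with wild type as control, and of all 5261 calls 3983 did. The direct comparison with alpha moved more, to 160 higher and 281 lower with the Wald test, 6 and 53 beyond 1.5-fold, and 145 to 211 and 250 to 288 with a library left out. GFP against wild type gave 60 higher and 57 lower genes with the GC trend removed, 624 lower with the Wald test, and 270 to 951 higher and 375 to 1159 lower with a library left out, lowest without wild type replicate 2. With wild type in place of GFP 3 named genes that rose had values below 0, namely CDT1 (-0.044), HELZ2 (-0.002) and RPLP1 (-0.111), of which RPLP1 passed. The cause was not tested. Depth limits genes near 0.157 CPM.

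The replicate numbers did not pair the libraries, with 4 of 15 correlations of deviations over 0.1 and a range of -0.254 to 0.336. With a replicate block 2912 genes were higher and 2292 lower for beta against GFP, 180 and 206 at least 2-fold, 343 and 432 against alpha, 3145 and 2798 against wild type, and 1093 and 1279 for GFP against wild type. Under the block 199 of 200 named genes kept their call, and COL5A2 did not (adjusted p = 0.0519).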

Other observations

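Some of the genes that changed at least 2-fold lie next to each other. In the gene order of RefSeq (GRCh38.p14), where 12656 tested genes could be placed, 46 of 179 genes with 2-fold rises stood in 20 runs of neighbouring tested genes that all rose at least 2-fold. Of 199 genes with 2-fold falls 33 stood in 14 such runs. How many runs the order of genes would give without any link was not tested. The longest runs held 4 genes. On chromosome 1 RRP15, a ribosome biogenesis factor, TGFB2, the lipid-metabolic LYPLAL1 and its antisense transcript LYPLAL1-AS1 all fell, by values from -4.90 to -2.30. RRP15 was at 190.7 and 191 CPM with GFP and at 39.3 and 38.1 CPM with beta. LYPLAL1 and LYPLAL1-AS1 may share reads, since the use of strand in counting is not stated. On chromosome 18 the microtubule-binding MAPRE2 and the zinc finger genes ZNF397, ZSCAN30 and ZNF271P fell, by values from -2.77 to -1.06. ZNF271P was at 391.7 and 400.1 CPM with GFP and at 62.2 and 62.9 CPM with beta. On chromosome 19 PSG3, PSG8, PSG4 and PSG9, near-identical pregnancy-specific glycoproteins whose reads may be shared, rose by 3.96 to 7.43. Pairs of named genes that rose side by side were PADI1 with PADI3, MMP1 with MMP3, SERPINB7 with SERPINB2, and TGM2 with KIAA1755, while TRIM5 fell beside TRIM22. KRT81 and KRT86, and SLC2A3 and SLC2A14, are near-identical pairs.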
